A study of Mus musculus with 2 samples.

Results

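Runs of closely spaced CTCF sites were described in a CTCF ChIP-seq map of double-negative (DN) thymocytes. A run was defined as 5 or more successive sites with no gap between neighbours above 10 kb. A site was made by joining all listed bins separated by up to 1000 bp. On chromosomes 1 to 19 this gave 43744 sites, of which 2554 lay in 443 runs. The members were therefore 5.84% of all sites (exact binomial 95% interval 5.62 to 6.06%). The site positions and the gaps between them chose the members, so run sizes, lengths, gaps and chromosome shares are given as descriptions, with no test.

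The cells were CD4-CD8- (DN) thymocytes of C57BL/6 mice, 4 to 8 weeks old, with the genotype given as Rag1 -/- (Rag -/- in one label). Both labelled libraries, 1 CTCF immunoprecipitate and 1 input control, carry this deletion, so no library with intact Rag1 was part of the comparison. Loss of Rag1 holds T cell precursors before they rearrange their receptor genes. How many animals gave the cells is not stated in the labels. The values come from the 1 CTCF library, as the input was not used here. The file gives positions without height or score, so the depth behind each site is unknown. There was no replicate, and all intervals below cover counting error only, with sites of one run sharing their neighbourhood.

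CTCF is a zinc-finger protein that binds a long DNA motif and halts the cohesin complex as it extrudes chromatin loops. A loop commonly ends at one CTCF site on each side. Arrays of neighbouring CTCF sites are known from boundaries of chromatin domains and from clustered gene families, including antigen receptor and protocadherin genes.

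Most groups of neighbouring sites ended long before they reached the size of a run. Sites with no neighbour within 10 kb numbered 21595. There were 5487 pairs, 1899 groups of 3 and 731 groups of 4 sites. Runs of exactly 5 sites numbered 251, followed by 107 runs of 6, 46 of 7 and 25 of 8 sites. Only 14 runs held 9 or more sites, and the largest held 12.

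Over sizes of 1 to 8 sites, the share of groups that went on to a further site was lowest at 1 site. Of all 30155 groups, 28.4% held at least 2 sites (exact 95% interval 27.9 to 28.9%). Of the groups with at least 2 sites, 35.9% had at least 1 more (34.9 to 36.9%). Of those with at least 3, 38.2% had a further one (36.5 to 39.9%). At the limit that defined a run, 37.7% of the 1174 groups with at least 4 sites reached 5 (35.0 to 40.6%). Of the 443 runs, 43.3% had more than 5 sites (38.7 to 48.1%). The counts of groups showed no break at 5 sites, so the minimum of 5 is a chosen limit on a continuous distribution.

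**Figure D1:**
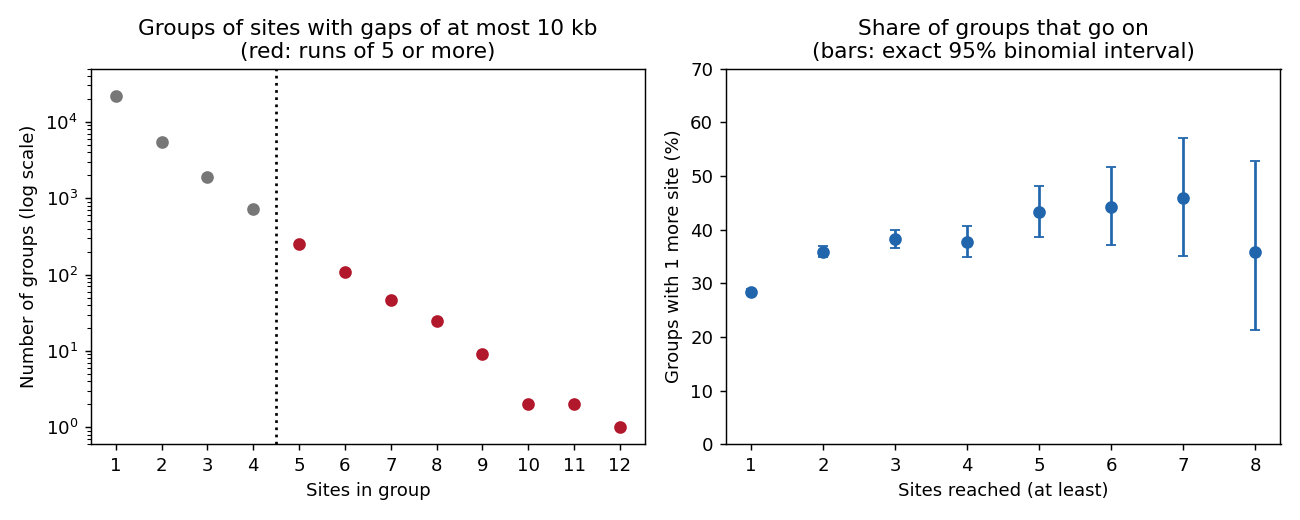
Left, number of groups (log axis) against the number of sites per group, with runs of 5 or more sites in red. Right, percent of the groups with at least the given number of sites that held 1 more, with exact 95% binomial intervals. Counts fell from 21595 lone sites to 1 group of 12 sites, and the share on the right was 28.4, 35.9, 38.2, 37.7 and 43.3% at the first 5 points.

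Runs were short stretches of DNA that held many sites. Their length, from the first base of the first site to the last base of the last, ranged from 8.33 to 62.2 kb, with a median of 25.1 kb and quartiles of 19.96 and 30.69 kb. Together the runs took up 11.5 Mb, or 0.478% of the summed chromosome spans, each counted from its first to its last site. Inside runs there were 2.22 sites per 10 kb, against 0.182 per 10 kb over all of chromosomes 1 to 19. Listed bins covered 11.2% of the length of the runs and 0.837% of the whole span. The rule fixes that runs are dense, and these values only say how dense they were.

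Larger runs were longer but not denser. The median length was 22.0 kb for runs of 5 sites, 26.5 kb for 6, 33.1 kb for 7, 38.9 kb for 8 and 44.8 kb for 9 to 12. The median density over runs was 2.28 sites per 10 kb in runs of 5 and 2.14 in runs of 9 to 12. A run has fewer gaps than sites, so sites per 10 kb fall with size even at equal spacing. The median over runs of the median gap was 4663, 4175, 4413, 4700 and 4131 bp for the same sizes, without a steady trend.

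The run with the most sites was also the longest. It lay on chromosome 2 from 28433349 to 28495548 (mm9, as for all positions here) and held 12 sites in 62.2 kb. From low to high coordinates its sites were 650, 700, 850, 400, 75, 625, 550, 600, 300, 275, 575 and 175 bp wide. The gaps between them ran from 1900 to 8900 bp with a median of 5550 bp. Widths thus mixed sites of the common broad size with narrow ones, and the narrowest, 75 bp, was the fifth in order. A further run of 9 sites ended 21.9 kb before it, so that 21 sites stood in 128 kb with a single gap above 10 kb.

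Chromosomes 15 and 19 carried the only runs of 11 sites. The run on chromosome 15, from 103137455 to 103183804, was 46.4 kb long (46350 bp). It opened with the 2 widest of its sites, 1775 and 2450 bp, and its narrowest were 100, 150 and 250 bp. The run on chromosome 19, from 45104436 to 45157060, measured 52.6 kb and also opened with its widest site, of 2350 bp. Its sites were 2350, 500, 1600, 125, 575, 300, 625, 1775, 575, 150 and 1400 bp wide. In both runs listed bins covered over 15% of the length (15.5% and 15.7%), above the upper quartile of 13.9% over all runs. Sites this wide were joined from several pieces, and the site of 1775 bp on chromosome 19 held 5.

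Runs of 10 sites lay on chromosomes 1 and 11. The run on chromosome 1, from 186595396 to 186656595, reached 61.2 kb with a median gap of 6225 bp. That on chromosome 11, from 114489221 to 114534445, was shorter, 45.2 kb, with a median gap of 4325 bp. Of its 10 sites 80% were 500 bp or wider, compared with 60% on chromosome 1. Among the longest runs by bp, 2 held 9 sites. The one on chromosome 2, from 166370024 to 166431498, measured 61.5 kb, and the one on chromosome 11, from 69034746 to 69086295, measured 51.6 kb (51.55 kb).

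The shortest runs packed 5 sites into less than 10 kb. On chromosome 4, from 151267511 to 151275835, a run of 8.33 kb held sites of only 25, 200, 50, 325 and 125 bp. Its gaps were 2400, 1400, 2425 and 1375 bp. It was 1 of 2 runs with no site of 500 bp or more. A second run on the same chromosome, 229 kb further on, had the opposite make-up. It lay from 151505086 to 151515060, and its sites were 850, 575, 700, 600 and 600 bp wide. Its gaps were 2600, 1300, 1300 and 1450 bp, and bins covered 31.6% of it, the highest share of any run. At such distances, separate sites and parts of one enriched stretch cannot be told apart from positions alone.

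**Figure D2:**
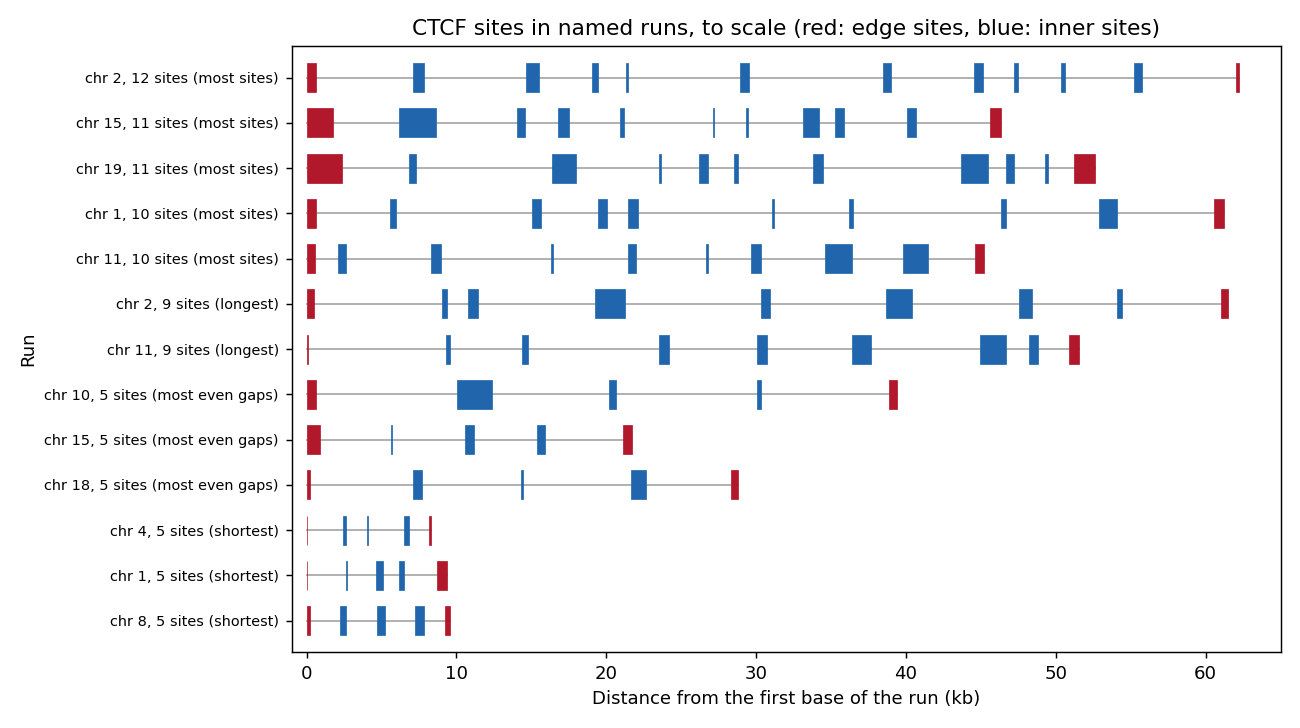
Sites of 13 named runs drawn to scale against the distance from the first base of the run in kb, with edge sites in red and inner sites in blue. The largest run spans 62.2 kb with 12 sites, and the shortest spans 8.33 kb with 5.

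The rules confined gaps inside runs and inside smaller groups to over 1 kb and at most 10 kb. Within these shared limits, which by themselves make spreads more alike, the spread in runs was close to that in smaller groups. The 2111 gaps had a median of 4.38 kb and quartiles of 2.48 and 6.88 kb. The 11478 gaps inside groups of 2 to 4 sites had a median of 4.58 kb and quartiles of 2.58 and 7.00 kb. In runs 17.95% of gaps were over 1 and up to 2 kb, and the share fell to 7.72% at 8 to 9 kb and was 7.96% at 9 to 10 kb. In groups of 2 to 4 sites the first class held 17.2% and the last 7.25%. All gaps over chromosomes 1 to 19, for which no upper limit was set, had a median of 20.4 kb.

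**Figure D3:**
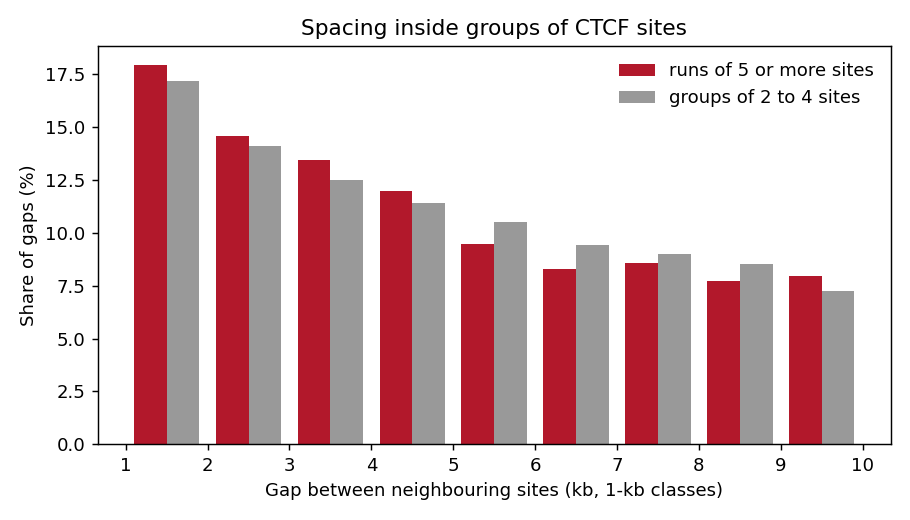
Share of gaps (percent) by length in classes of 1 kb, for the 2111 gaps inside runs (red) and the 11478 gaps inside groups of 2 to 4 sites (grey). Both distributions decline from the shortest class, 17.95% and 17.2%, to about the level of the last, 7.96% and 7.25%.

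Spacing was similar at the ends and in the middle of runs. The 886 outer gaps, which touch the first or last site, had a median of 4.38 kb (quartiles 2.53 and 6.84 kb). The 1225 inner gaps had a median of 4.35 kb (quartiles 2.43 and 6.93 kb). Successive gaps in a run were nearly unrelated, with Pearson's r of 0.01 and Spearman's rho of 0.01 over 1668 pairs, which share a site and a library. A weak correlation of this size is no finding.

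Few runs were evenly spaced. The largest gap of a run was 4.24 times its smallest at the median, with quartiles of 2.88 and 5.63 times. In 35 runs the largest gap was less than 2 times the smallest. The coefficient of variation of the gaps, their SD over their mean, had a median of 0.531 over runs. It was lowest on chromosome 10, in the run of 5 sites from 127973203 to 128012577, at 0.0881. The gaps there were 9425, 7800, 9400 and 8575 bp, and this run also had the largest median gap of all, 8988 bp. Next came runs on chromosome 15 (95582655 to 95604379, gaps of 4775, 4900, 4175 and 5200 bp) and chromosome 18 (37105482 to 37134306, gaps of 6875, 6650, 7225 and 5700 bp). The following largest median gaps, 8550 and 8400 bp, were both on chromosome 5, in runs of 7 sites (149838996 to 149883320) and 5 sites (98596346 to 98627845). The smallest median gaps were 1375 bp on chromosome 9 (20799551 to 20817225, 6 sites) and in the densely covered run of chromosome 4, and 1425 bp on chromosome 3 (87637269 to 87653193, 6 sites). In the run on chromosome 9 the first 3 gaps were 1350, 1350 and 1375 bp, and the last 2 were 6675 and 4325 bp. The list of the most even and of the shortest runs was chosen after the values were seen.

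The gap limit of 10 kb cut through a smooth distribution. Over chromosomes 1 to 19 there were 1000 gaps over 9 and up to 10 kb and 1018 over 10 and up to 11 kb. The largest gap exceeded 9 kb in 147 of the 443 runs. Under a limit of 9 kb those runs would shrink, split or, with fewer than 5 sites left together, be lost. On the other side, 51 runs had a next site no more than 11 kb away, and 67 of the 731 groups of 4 sites would gain a site under a limit of 11 kb. In 36 runs, 8.13% (exact 95% interval 5.76 to 11.1%), every gap was at most 5 kb.

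Runs seldom stood alone in empty stretches. The gap from a run to the next site outside it had a median of 23.5 kb (quartiles 15.3 and 41.3 kb), while all 30136 gaps over 10 kb had a median of 34.8 kb (19.3 and 72.2 kb). Only 2 runs had more than 100 kb without a site on both sides, or 0.451% (exact 95% interval 0.0547 to 1.62%). Of the 8117 groups of 2 to 4 sites 2.25% stood so (1.94 to 2.60%), and of lone sites 8.22% did (7.86 to 8.60%). One of these 2 runs lay on chromosome 5, from 98596346 to 98627845, with 184 kb free before it and 130 kb after it. The other lay on chromosome 2, from 160404299 to 160427998, with 157 and 103 kb. Each had 5 sites.

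Most runs were far from the next run, and a minority lay close together. The median distance between successive runs of a chromosome was 1.03 Mb, the lower quartile was 244 kb and the longest distance 60.9 Mb. Of the 424 distances, 34 were at most 50 kb and 53 at most 100 kb. Linking runs at most 100 kb apart left 345 runs by themselves, 38 pairs, 6 chains of 3 runs and 1 chain of 4. The chain of 4 lay on chromosome 4 from 135487636 to 135762710 and held 25 sites in 275 kb, of which 21 belonged to its runs.

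The tightest chain of 3 runs was on chromosome 18, from 37833732 to 37932006. It held 18 sites in 98.3 kb, all of them in runs of 5, 6 and 7 sites, and only 2 gaps, of 12.2 kb (12150 bp) and 10.5 kb (10525 bp), exceeded the limit. The coefficient of variation of its 17 gaps, 0.491, was the lowest of the 7 chains of 3 or more runs, which otherwise ranged from 0.662 to 1.45. Its sites were 150 to 675 bp wide with a median of 513 bp. The same 1-Mb window held 1 more run, the evenly spaced one named above. Chromosome 18 carries the clustered protocadherin genes, which encode adhesion proteins of neurons and are known for CTCF sites at many of their promoters. Whether these runs lie among them was not tested, since no gene positions of the mm9 build were used.

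A chain on chromosome 14, from 53844345 to 54089269, differed from the others in width. It held 26 sites in 245 kb, 16 of them in 3 runs, and 88.5% of the 26 were 500 bp or wider, with a median of 650 bp. In the other chains of 3 or more runs this share ran from 55.0 to 72.7%. Its median gap, 8.55 kb, was the longest of these chains, the others having 3.75 to 6.34 kb. Runs near the chain resembled runs inside it. The run from 53533370 to 53553994 was as long as the chain's first run, 20625 bp, with 5 sites and a median width of 650 bp in both. Runs of 6 sites starting at 53953470, in the chain, and 54345795, outside it, both had median gaps of 4925 bp and median widths of 662.5 bp. Why these runs were alike was not tested. Chromosome 14 carries the genes of the T cell receptor alpha and delta chains, and the position of genes relative to this chain was likewise not analysed here. Both chains were singled out after their values were seen.

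Chromosomes differed in how many of their sites stood in runs. The share was highest on chromosome 5, 9.33% (exact 95% interval 8.32 to 10.4%, 287 of 3077 sites in 48 runs). Chromosome 17 followed with 8.68% (7.48 to 9.998%, 173 of 1994) and chromosome 11 with 8.66% (7.72 to 9.67%, 284 of 3280). The intervals of these 3 chromosomes overlapped, and their order changed with the limits: chromosome 17 was highest with bins joined across 200 bp, and chromosome 11 with only touching bins joined or with gaps up to 20000 bp. The lowest share was 2.75% on chromosome 13 (2.05 to 3.61%, 50 of 1819), then 2.80% on chromosome 16 (2.02 to 3.78%, 41 of 1464). The highest share was 3.39 times the lowest. All these intervals count single sites, although sites enter runs in blocks of 5 or more, so they are too narrow. Chromosomes 5, 11 and 17 together held 128 runs, or 28.9% of all runs, and 19.1% of all sites.

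The share in runs did not simply follow the density of sites. Chromosome 19 had 22.8 sites per Mb, the second-highest density, but only 3.32% of its sites were in runs (2.42 to 4.43%). Chromosome 9, with 21.4 sites per Mb, had 4.48% (3.71 to 5.35%). Chromosome 5 was less dense than both, at 20.6 per Mb. Chromosome 14, with 15.3 per Mb, had 6.45% in runs (5.36 to 7.68%), against 2.75 to 4.55% on the other 6 chromosomes with fewer than 16 sites per Mb. Of the 117 sites in runs on chromosome 14, 21 belonged to the 4 runs centred at 53 to 54 Mb. Just past that window lay the last run of the chain, with 5 sites from 54062420, and the run of 6 sites from 54345795. Across the 19 chromosomes Pearson's r between density and share in runs was 0.56 and Spearman's rho 0.53, and 0.47 and 0.46 without chromosome 11. Both measures come from the same sites, so this is a description.

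**Figure D4:**
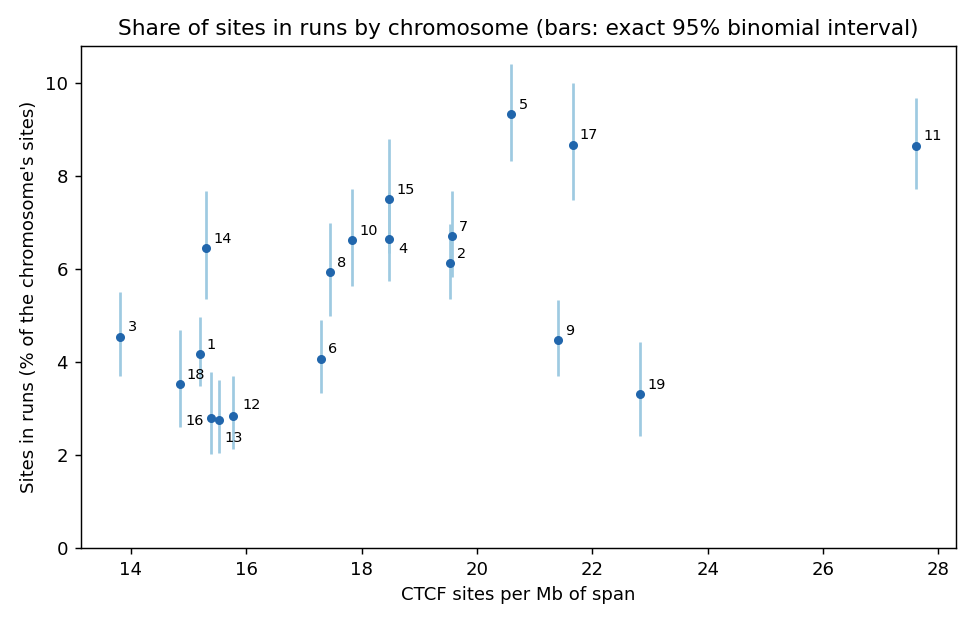
Percent of a chromosome's sites that lay in runs (exact 95% binomial intervals) against its CTCF sites per Mb of span, 1 point for each of 19 chromosomes. Chromosomes 9 and 19 lie far below chromosomes 5, 11 and 17, although their densities of 21.4 and 22.8 sites per Mb are close to the 20.6 to 27.6 of those 3.

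Chromosomes 5 and 19 also differed among windows of like density. In windows of 1 Mb with 40 or more sites, 14.7% of sites on chromosome 5 lay in runs (1127 sites) and 6.75% on chromosome 19 (489 sites). In windows with 20 to 39 sites the shares were 8.49% (1284 sites) and 2.00% (549 sites). Such windows held similar parts of both chromosomes, with 36.6% and 36.9% (36.85%) of their sites in windows of 40 or more. Chromosome 19 had runs in 6 of 59 windows (10.2%) and chromosome 5 in 33 of 145 (22.8%).

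Crowded windows often held a run but many did not. Of the 258 windows with 40 or more sites, 163 (63.2%) held the centre of a run, and these windows held 289 of the 443 runs. The remaining 95 had none. The window at 98 to 99 Mb on chromosome 11 and that at 133 to 134 Mb on chromosome 4 each held 66 sites and no run. Of the windows with 10 to 19 sites 4.19% held a run, and of those with 1 to 9 sites 0.386%. A run needs 5 or more sites, so low shares in sparse windows follow partly from the rule. The most runs in one window, 5, were found at 29 to 30 Mb on chromosome 17 and at 151 to 152 Mb on chromosome 4. The most crowded window of all, at 79 to 80 Mb on chromosome 10 with 84 sites, held 4 runs, as did the window at 53 to 54 Mb on chromosome 14 with 76. On chromosome 18, at 37 to 38 Mb, 4 runs held 23 of the 43 sites, or 53.5%, the highest share among the 16 windows with 4 or more runs.

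Runs were most frequent toward the high-coordinate end of chromosomes. The last 10% of the spans held 99 runs, 22.3% of all (exact 95% interval 18.6 to 26.5%), and 14.3% of all sites. The first 10% held 15 runs, 3.39% (1.91 to 5.52%), and 7.39% of sites. Relative to the sites present, 9.26% of sites in the last 10% were in runs (8.56 to 10.01%), 2.66% in the first 10% (2.13 to 3.27%), and 4.44 to 6.76% in the 8 parts of equal length between them. The intervals of these shares of sites are too narrow for the same reason as those by chromosome. Single chromosomes departed from this pattern. The share in the first 10% exceeded that of the whole chromosome on 6 of 19, among them chromosome 12 with 6.85% against 2.84%, and it was 0 on 8 of 19. The share in the last 10% exceeded it on 10 of 19, led by chromosome 10 with 20.7% against 6.62%, while on chromosomes 3, 6, 13, 14 and 18 no site of the last 10% was in a run.

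Edge and inner sites of runs differed little in width under the rule used here. Width was the only measure of a site that the rule did not use, apart from the joining of bins that made the sites. The 886 edge sites, the first and last of each run, had a median width of 550 bp (quartiles 325 and 625 bp). The 1668 inner sites had a median of 575 bp (300 and 650 bp). Sites of 500 bp or more made up 61.4% of edge sites (exact 95% interval 58.1 to 64.6%) and 62.3% of inner sites (59.9 to 64.6%), against 56.0% of all sites on chromosomes 1 to 19. Edge minus inner was -0.89 percentage points (Newcombe 95% interval -4.87 to 3.04 points). A difference of several points in either direction lies within this interval. The call depended on the limits. With only touching bins joined, where pieces of one site count as sites, the difference was 9.66 points (7.28 to 12.02), and with gaps up to 20000 bp it was -3.69 points (-5.71 to -1.68).

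With other cuts of width the intervals of the difference also held 0. At 600 bp or more the shares were 40.5% at edges and 43.4% inside, with 34.1% over all sites, a difference of -2.89 points (-6.87 to 1.14). Sites of 100 bp or less made up 9.03% of edge and 10.1% of inner sites, with 12.2% over all sites (difference -1.04 points, -3.35 to 1.43). Sites over 700 bp made up 15.3% and 15.6%, with 11.0% over all sites (difference -0.24 points, -3.11 to 2.78). The share made of several pieces was 19.4% at edges and 19.8% inside, with 15.5% over all sites (difference -0.37 points, -3.54 to 2.93).

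The direction of the edge difference varied among runs and chromosomes. The share of sites of 500 bp or more was lower at edges on 13 of 19 chromosomes and higher on 6. On chromosome 12 it was 55.0% at edges (20 sites) and 81.8% inside (33 sites), and on chromosome 6 it was 76.3% (38 sites) and 56.9% (65 sites). By run, mean edge width lay below mean inner width in 243 runs and above it in 200. The median of this difference over runs was -31.3 bp, with quartiles of -233 and 185 bp, so its spread among runs far exceeded its size. In the 405 runs with 1 widest site, that site stood at an edge in 33.6% (exact 95% interval 28.99 to 38.41%), and edge sites were on average 35.7% of the sites in those runs.

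In runs of exactly 5 sites, 59.96% of edge sites and 63.3% of inner sites were 500 bp or wider, a difference of -3.39 points (Newcombe 95% interval -8.88 to 2.08). At 600 bp or more the shares were 37.6% and 42.8%, a difference of -5.11 points (-10.6 to 0.44). From low to high coordinates the share of sites of 500 bp or more was 59.0, 62.2, 61.4, 66.5 and 61.0% (251 sites at each place). In smaller groups, of 3 and 4 sites, the edge share at 500 bp was 60.7% (5260 sites) against 63.8% inside (3361 sites). That difference was -3.06 points (Newcombe 95% interval -5.14 to -0.96). Whether the difference in runs departs from that in smaller groups was not tested.

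Sites of runs were more often wide than lone sites, and close to those of groups of 3 and 4 at the cut of 500 bp. Sites of 500 bp or more made up 62.0% in runs, 61.9% in groups of 3 and 4, 58.6% in pairs and 51.6% among lone sites. Runs exceeded lone sites by 10.3 points (Newcombe 95% interval 8.32 to 12.3), with the same sign on 19 of 19 chromosomes. Against groups of 3 and 4 the difference was 0.09 points (-2.07 to 2.21). At 600 bp or more it was 1.62 points (-0.55 to 3.81), with 42.4% in runs and 40.8% in groups of 3 and 4. Sites over 700 bp made up 15.5% in runs and 13.7% in groups of 3 and 4, 1.83 points apart (0.29 to 3.45). At 500 bp or more, the share in runs of 8 to 12 sites was 58.5% and in runs of 5 to 7 sites 62.5%. That difference was -3.998 points (-9.70 to 1.54). Sites of several pieces made up 19.7% in runs, 17.5% in groups of 3 and 4, 16.2% in pairs and 13.97% among lone sites, with 15.5% over all sites. Runs exceeded groups of 3 and 4 by 2.20 points in this share (0.49 to 3.97). The number of pieces comes from the joining of bins across up to 1000 bp that made the sites, so this difference is a description. Sites over 700 bp can also be joined pieces, and their share among sites of a single piece was not computed. Among sites of a single piece the share of 500 bp or more was still 59.6% in runs and 50.04% among lone sites, 9.61 points apart (7.36 to 11.8).

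**Figure D5:**
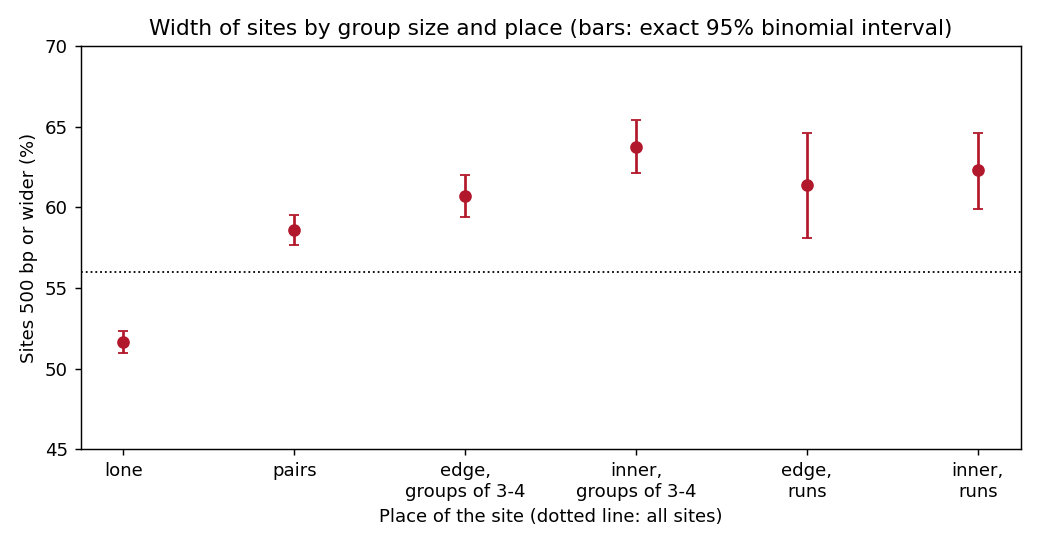
Percent of sites 500 bp or wider (axis from 45%) with exact 95% binomial intervals, for lone sites, pairs, and edge and inner sites of groups of 3 and 4 and of runs; the dotted line is the 56.0% of all sites. The share rises from 51.6% for lone sites to 58.6% for pairs and lies between 60.7 and 63.8% for all sites of larger groups.

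Narrow and wide sites were mixed within runs. Of the 251 runs of 5 sites, 84 had 3 sites of 500 bp or more, 68 had 4 and 61 had 2, while 24 had all 5 wide and 2 had none. After a site of 500 bp or more, the next site in the run was also that wide in 61.4% of 1313 cases (exact 95% interval 58.7 to 64.0%). After a narrower site this was so in 63.0% of 798 cases (59.6 to 66.4%). Pearson's r between the widths of neighbouring sites in runs was 0.03 over 2111 pairs, which share a library. Width did not change steadily with spacing either. Of inner sites with a mean gap of 1 to 3 kb to their neighbours 60.5% were 500 bp or wider (352 sites), and with a mean gap of 7 to 10 kb 59.7% were (206 sites), with 62.9 and 63.8% in the classes between.

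Sites over 700 bp were 15.5% of the sites in runs and 11.0% of all sites. At least 1 such site stood in 273 of the 443 runs, a count that also reflects the 5 or more sites each run holds. The widest site in a run, 3525 bp, was on chromosome 11 from 103192196 to 103195720, second of 5 sites. The next, of 3375 bp on chromosome 4 (43489436 to 43492810), was the first of 5, and that of 3275 bp on chromosome 5 (117563246 to 117566520) was the last of 6. All 3 were joined from 3 or 4 pieces, and listed bins covered 1625, 1675 and 1650 bp of them.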

How the data were processed

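CTCF ChIP-seq of 1 library of DN thymocytes was used, and the input library was not used here. The submitters' processing notes name Bowtie and the build mm9. For the peak caller, the threshold and any use of the input, nothing is given in the sources used here. The track deposited by the authors lists 825544 bins of 25 bp as positions (0 of another length), with no height, score or p-value. Bins were joined across up to 1000 bp into sites, which were grouped where gaps were at most 10000 bp. Positions were converted to 1-based coordinates. Width is the full extent of a site, with the gaps inside it.

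Shares carry exact binomial 95% intervals, and differences of shares Newcombe intervals. With 1 library there was no test across samples. The code was tested on simulated runs. The tools were pandas 2.3.3, statsmodels 0.14.6, scipy 1.17.1, numpy 2.4.6 and matplotlib 3.10.9 under Python 3.11.15. Runs were named by the most sites (5), length (5), smallest and largest median gap (3 each), together with the 2 highest and 2 lowest chromosomes and the 3 widest sites. Members and lists were chosen with earlier results of these data known. Genes, motifs and sequences at the runs were not analysed here, because the gene table supplied follows GRCm38.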

Additional observations from a re-analysis of the deposited data

How the results depend on the processing

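Each of 6 results was recomputed under other limits, which gave 54 values. Of these, 19 lay inside the 95% interval of the reported value (for the number of runs, within 1.5 times of it), 35 moved outside. None counts as reversed, because the interval of the one signed result, edge minus inner, held 0 from the start, but its sign turned positive in 3 of 11 alternatives. The sizes, lengths and gaps depend on the limits chosen by definition. How much of these moves comes from that dependence was not tested. The 443 runs became 713 with bins joined across 200 bp, 1250 with only touching bins joined, 272 joined across 2000 bp, 62 with gaps up to 5000 bp, 1614 with gaps up to 20000 bp, 1174 with at least 4 sites, 39 with at least 8 sites, and 66 with only sites of 500 bp or more. In the same order, the percent of sites in runs, 5.84%, became 9.07, 14.8, 3.72, 0.757, 25.1, 12.5, 0.766 and 1.42%, and it was 4.54% with only sites wider than 100 bp. The median gap inside runs, 4375 bp, became 3425 bp (200 bp), 1975 bp (touching), 5200 bp (2000 bp), 2575 bp (gaps up to 5000 bp), 7150 bp (gaps up to 20000 bp) and 4638 bp (at least 8 sites). The median run length, 25100 bp, became 21000 bp (200 bp), 16875 bp (touching), 28563 bp (2000 bp), 14950 bp (gaps up to 5000 bp), 46400 bp (gaps up to 20000 bp), 18788 bp (at least 4 sites), 40950 bp (at least 8 sites) and 23550 bp (500 bp or more). Edge minus inner, -0.89 points, became 9.66 points (7.28 to 12.02) with only touching bins joined, where pieces of one site count as sites, 3.95 points with at least 8 sites and 2.9998 points with gaps up to 5000 bp. With gaps up to 20000 bp it was -3.69 points (-5.71 to -1.68), so edge sites were narrower there. In the remaining 9 of 11 alternatives, at least 8 sites and gaps up to 5000 bp included, the interval held 0. The highest chromosome share over the lowest, 3.39 (chromosomes 5 and 13), became 2.48 (11 and 12) with only touching bins and 4.62 (5 and 13) joined across 2000 bp. The highest chromosome was 17 with bins joined across 200 bp and 11 with gaps up to 20000 bp, and the lowest was 12 (joined across 200 bp, at least 4 sites), 16 (only sites wider than 100 bp) or X where X was included. This ratio could not be given with gaps up to 5000 bp, at least 8 sites or only sites of 500 bp or more, where a chromosome had no run. The edge difference could not be given with only sites of 500 bp or more. The cause of these moves was not tested. No comparison paired across libraries was possible because only 1 CTCF library was used. The interval of edge minus inner treats edge and inner sites as separate samples. The comparison within runs is given above by counts of runs and a median difference. The depth is not known, and sites below the authors' threshold could link or lengthen runs.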
